A study of Mus musculus with 8 samples.

Results

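The genes described here are the fibrillar collagens of connective tissue and the collagens that sit on their fibrils, namely Col1a1, Col1a2, Col3a1, Col5a1, Col5a2, Col5a3, Col12a1, Col14a1 and Col16a1. They were chosen by gene name from the deposited expression table, and all 9 were found among its 20539 genes. RNA was sequenced from knee articular cartilage of mice on day 7 after surgical transection of the anterior cruciate ligament (ACLT), a model of posttraumatic osteoarthritis. There were 4 groups with 2 pools each, named A and B in the labels: ACLT limbs of mice dosed with anti-GDF8 antibody (REGN647), ACLT limbs of mice dosed with placebo antibody (REGN1945), contralateral control limbs of anti-GDF8 mice and contralateral control limbs of placebo mice. GDF8, also called myostatin, is a secreted ligand of the TGF-β family that limits muscle growth. Per the study's methods, antibody was injected subcutaneously 2 times a week at 10 mg/kg into mice of both sexes aged 4 to 5 months, and each pool held cartilage RNA of 4 limbs out of 8 mice per group. The label text speaks of pools from 4 mice per treatment. Drug-treated mice were C57BL/6J or Col1-eGFP mice, in which a type I collagen promoter drives the fluorescent protein eGFP, and the sources used here do not say which of them gave the cartilage. Every control library came from the uncut limb of an operated animal, so no group was free of surgery. The treatment tag of the 4 control libraries names quadriceps, whereas their titles, tissue tags and sources name cartilage, and they were taken as cartilage.

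Fibrillar collagens are triple helices of 3 chains that assemble into the cable-like fibrils of bone, tendon, skin and scar. Type I collagen, made from the products of Col1a1 and Col1a2, is the main fibril protein of bone and of most fibrous tissue. Type III collagen (Col3a1) is laid down with it in stretchable tissue and in early repair, and type V collagen (Col5a1, Col5a2, Col5a3) lies inside the fibril and sets its starting point and width. Types XII, XIV and XVI (Col12a1, Col14a1, Col16a1) bind to fibril surfaces and link fibrils to the surrounding matrix. Healthy hyaline cartilage is built mainly on type II collagen. Type I collagen marks bone, and type I and type III collagen are found in synovium, ligament and fibrocartilage. TGF-β family ligands act through SMAD proteins and are well known inducers of these genes.

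Promoter windows were available from RefSeq (GRCm38.p6) for 5 of the 9 genes, Col1a2, Col3a1, Col5a1, Col5a3 and Col16a1, each spanning 250 bases before to 50 bases after the gene's start. The 4 windows below are shown because Col1a2 did not pass the test of injury with either antibody, whereas Col3a1, Col5a1 and Col5a3 passed it with both. Not passing does not show that Col1a2 mRNA was unchanged, so the windows do not contrast responding with non-responding genes. Capitals mark CAGAC or its reverse complement GTCTG, the core of the SMAD-binding element, and CCAAT or its reverse complement ATTGG, the box bound by NF-Y. The windows lie at chr6:4505368-4505667 (plus strand) for Col1a2, chr1:45311288-45311587 (plus strand) for Col3a1, chr2:27886175-27886474 (plus strand) for Col5a1 and chr9:20815018-20815317 (minus strand) for Col5a3.
Col1a2: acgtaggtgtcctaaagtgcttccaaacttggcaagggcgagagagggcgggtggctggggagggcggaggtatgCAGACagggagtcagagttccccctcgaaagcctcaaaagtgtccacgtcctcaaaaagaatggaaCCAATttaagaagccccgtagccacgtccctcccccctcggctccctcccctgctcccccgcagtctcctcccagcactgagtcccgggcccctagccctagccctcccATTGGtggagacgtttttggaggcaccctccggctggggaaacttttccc
Col3a1: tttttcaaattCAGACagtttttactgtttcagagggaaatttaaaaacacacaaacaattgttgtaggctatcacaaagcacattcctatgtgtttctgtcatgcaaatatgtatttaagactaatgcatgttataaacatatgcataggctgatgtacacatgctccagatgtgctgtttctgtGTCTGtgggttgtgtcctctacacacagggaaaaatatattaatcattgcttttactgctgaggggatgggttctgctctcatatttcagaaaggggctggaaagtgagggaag
Col5a1: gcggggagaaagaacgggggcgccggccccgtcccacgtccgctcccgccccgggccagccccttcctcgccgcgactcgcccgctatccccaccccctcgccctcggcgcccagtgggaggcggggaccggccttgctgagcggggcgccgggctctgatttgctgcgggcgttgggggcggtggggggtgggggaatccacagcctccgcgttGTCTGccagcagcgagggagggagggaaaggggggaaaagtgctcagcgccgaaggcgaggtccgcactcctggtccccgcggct
Col5a3: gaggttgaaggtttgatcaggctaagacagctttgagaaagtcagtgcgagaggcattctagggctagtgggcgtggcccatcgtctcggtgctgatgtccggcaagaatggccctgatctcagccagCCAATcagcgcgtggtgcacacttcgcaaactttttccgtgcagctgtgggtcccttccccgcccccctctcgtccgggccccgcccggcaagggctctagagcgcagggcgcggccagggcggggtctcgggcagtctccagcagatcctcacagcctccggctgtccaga
CAGAC on either strand was in 3 of the 5 windows (Col1a2, Col3a1 and Col5a1), against 49.6% of all 32851 RefSeq windows of the same length. CCAAT on either strand was in 3 of the 5 (Col1a2, Col5a3 and Col16a1), against 37.4% of all windows. GGGCGG or its reverse complement CCGCCC, the GC box, was in 4 of the 5 windows, all except that of Col3a1, against 35.7% of all windows, and TATAAA or TTTATA was in the Col3a1 window only, against 13.6%. Col1a2 was the only one of the 4 printed windows with both motifs, and it shared CAGAC with Col3a1 and Col5a1 and CCAAT with Col5a3. The Col3a1 window stood out by its base composition, with 37.7% G and C, against 61.0% for Col1a2, 63.3% for Col5a3, 74.3% for Col16a1 and 75.0% for Col5a1. These matches describe letters in short windows and do not show binding.

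All values are CPM as deposited, which is read counts scaled to 1000000 per library, at estimated depths of 16.4 to 28.1 M reads per library. Some genes of the chondrocyte marker list were well above 0 in every library, with Prg4 (lubricin) at 1202 to 6881 CPM, Col2a1 at 168 to 1654 CPM and Acan (aggrecan) at 28.5 to 88.9 CPM. Other chondrocyte markers were low in some libraries, with Col9a1 at 0.0723 to 43.2 CPM, Matn3 at 0.0994 to 26.3 CPM and Cnmd at 0.854 to 42.7 CPM. All 10 chondrocyte markers together, led by Prg4, took 0.263% to 0.793% of reads. That share does not show that cartilage content was alike between libraries. Other tissue was present as well. Of the 8 erythroid markers 7 were in the table and took 6.95% to 13.2% of reads, and the 20 skeletal muscle fiber markers took 0.247% and 3.69% in the anti-GDF8 ACLT pools, 0.0701% and 0.0391% in the placebo ACLT pools, 1.90% and 3.19% in the anti-GDF8 control pools and 3.38% and 7.85% in the placebo control pools. The anti-GDF8 ACLT pools thus lay far apart in muscle RNA, and both placebo ACLT pools lay below all other libraries. In bulk RNA, fewer cells of a type and less RNA per cell cannot be told apart.

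The 9 collagen genes together took 1.12% and 0.837% of reads in the anti-GDF8 ACLT pools and 4.01% and 2.06% in the placebo ACLT pools. In control limbs they took 0.278% and 0.748% with anti-GDF8 and 0.526% and 1.32% with placebo. Both placebo ACLT pools were above all other libraries, and the anti-GDF8 ACLT pools lay within the range of the control libraries. Most of that sum was type I collagen, and the picture was different without it. The other 7 genes summed to 3623 and 2885 CPM in the anti-GDF8 ACLT pools, 7778 and 7741 CPM in the placebo ACLT pools, 265 and 446 CPM in the anti-GDF8 control pools and 942 and 417 CPM in the placebo control pools. On this sum the ACLT and control limbs did not overlap with either antibody, and the anti-GDF8 ACLT pools lay between the placebo ACLT pools and the controls.

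**Figure D1:**
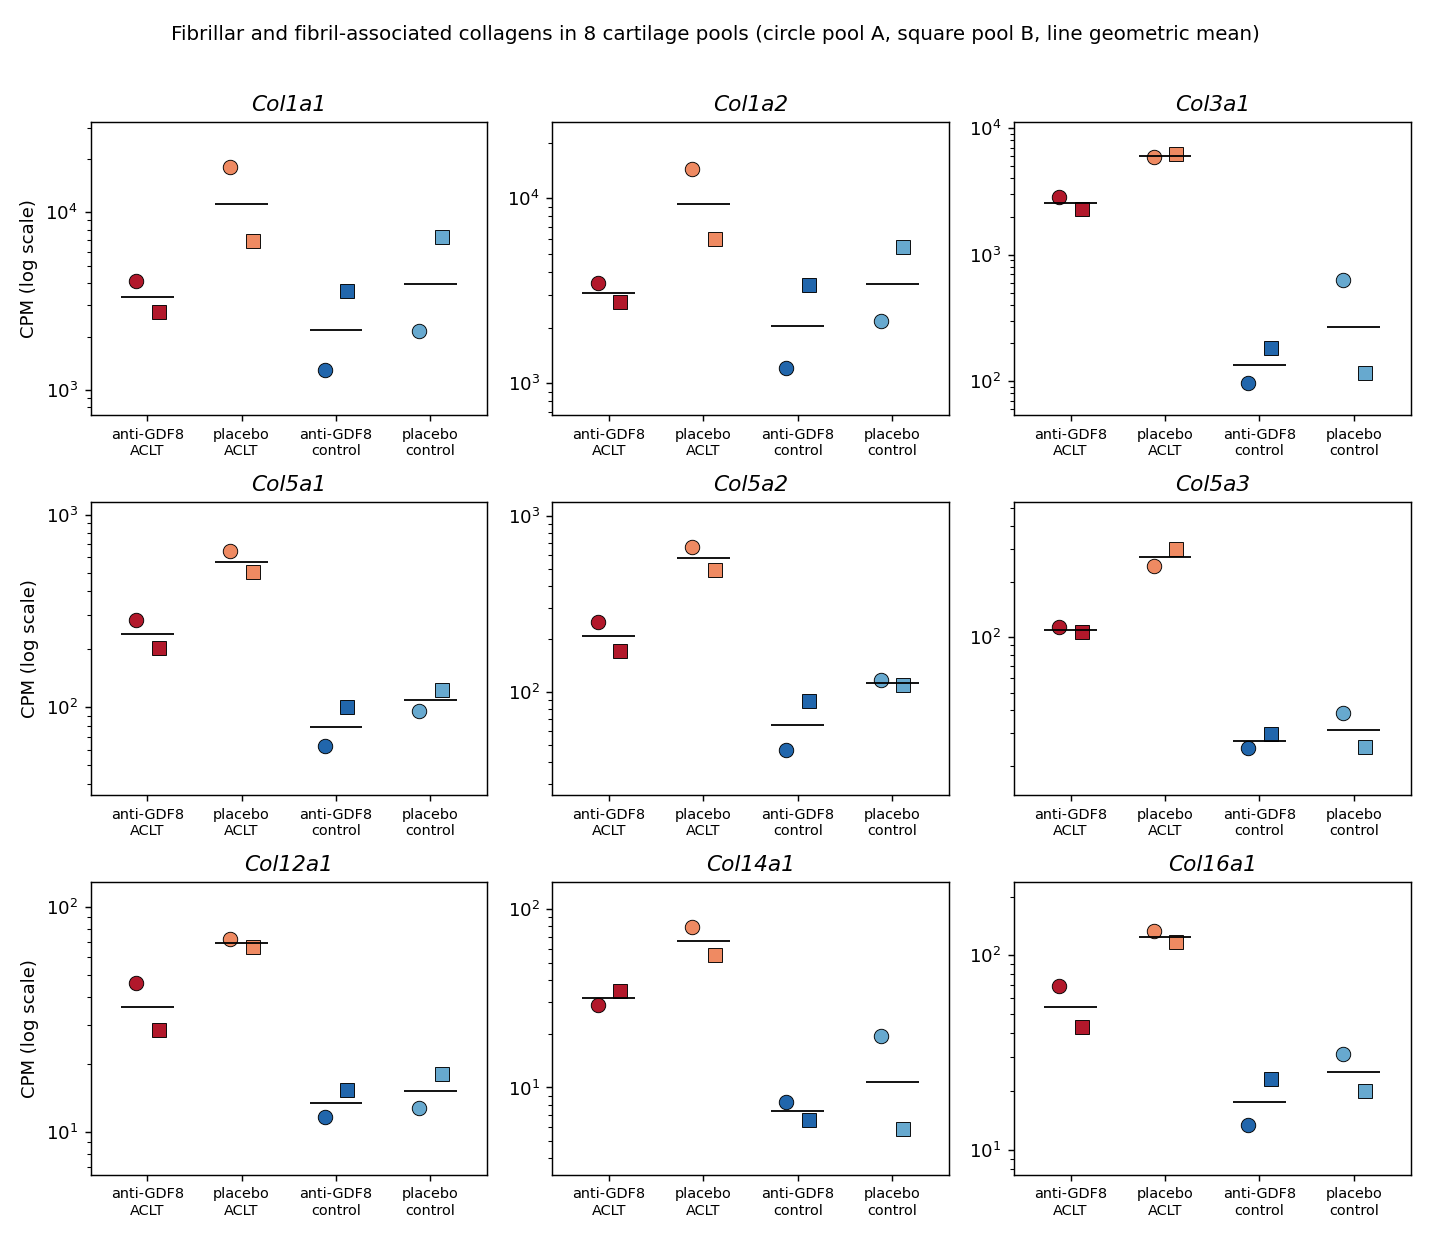
CPM of each collagen gene (y axis, log scale, a different range in each panel) in the 4 groups, with a circle for pool A, a square for pool B and a line at their geometric mean. For Col1a1 the placebo control pool B (7284 CPM) lies above the placebo ACLT pool B (6874 CPM), whereas for Col3a1 both placebo ACLT pools lie above every other library.

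The first question was how the injury changed these genes in mice given placebo antibody. With placebo, 7 of the 9 genes rose in ACLT limbs against contralateral control limbs, namely Col3a1, the 3 type V genes and the 3 fibril-associated genes, by 4.54-fold (Col12a1) to 22.5-fold (Col3a1). Both type I genes had positive fold changes that did not pass the test. The test was limma on log2 values with 1 read added, with p-values adjusted over all 17401 genes tested, and 11.6% of those genes rose by the same rule. The median log2 fold change of the 9 genes was 2.35, against 0.17 for all genes tested. Pools did not overlap for 8 of the 9 genes, with both placebo ACLT pools above both placebo control pools, which held for 38.8% of all genes tested.

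Col3a1, which encodes the single chain of type III collagen, had the largest change. It was at 5932 and 6209 CPM in the placebo ACLT pools, against 628 and 116 CPM in the placebo control pools. The injured pools lay close together and the control pools were 5.41 times apart. The log2 fold change was 4.49 ± 0.64 (SE, limma adjusted p = 0.00365), and leaving out a single library moved it between 3.27 (without placebo control pool B) and 5.71 (without placebo control pool A). By CPM, Col3a1 had rank 12 and rank 9 among all genes in the placebo ACLT pools, against rank 153 and rank 1382 in the placebo control pools. In the deposited coordinates the gene spans positions 45350698 to 45388866 of chromosome 1 on the plus strand, and Col5a2 lies 24614 bases away on the minus strand.

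All 3 type V genes rose. Col5a1, which codes for the chain found in nearly all type V molecules, was at 648 and 501 CPM in the placebo ACLT pools, against 95.6 and 122 CPM in the placebo control pools. Col5a2, its usual partner chain, was at 670 and 491 CPM in the placebo ACLT pools, against 117 and 109 CPM in the placebo control pools. Col5a3, a chain of a less common type V form, was at 244 and 301 CPM in the placebo ACLT pools, against 38.5 and 25.5 CPM in the placebo control pools. In all 3 genes the lower ACLT pool was well above the higher control pool. Their log2 fold changes were 2.40 ± 0.26 for Col5a1, 2.35 ± 0.31 for Col5a2 and 3.11 ± 0.21 for Col5a3 (SE, limma adjusted p = 0.00148, 0.00262 and 6.7e-04 in that order). Col5a3 had the smallest p-value of the 9 genes. In the deposited coordinates Col5a1 spans 27776437 to 27929526 of chromosome 2 (plus strand), Col5a2 45413481 to 45542442 of chromosome 1 (minus strand) and Col5a3 20681346 to 20726363 of chromosome 9 (minus strand).

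The 3 fibril-associated collagens rose as well. Col12a1, whose product lies along type I fibrils in tendon, ligament and periosteum, was at 72.1 and 66.4 CPM in the placebo ACLT pools, against 12.8 and 18.0 CPM in the placebo control pools. Col14a1, which limits the lateral growth of fibrils, was at 79.1 and 55.4 CPM in the placebo ACLT pools, against 19.5 and 5.84 CPM in the placebo control pools. Col16a1, found near fibrils and cell surfaces, was at 133 and 117 CPM in the placebo ACLT pools, against 31.1 and 20.1 CPM in the placebo control pools. Col12a1 spans 79506273 to 79626113 of chromosome 9 (minus strand), Col14a1 55171146 to 55384199 of chromosome 15 (plus strand) and Col16a1 129941633 to 129993076 of chromosome 4 (plus strand). The ACLT and control pools of each gene were separate, with the widest gap between control pools in Col14a1. The log2 fold changes were 2.18 ± 0.27 for Col12a1, 2.63 ± 0.47 for Col14a1 and 2.31 ± 0.33 for Col16a1 (SE, limma adjusted p = 0.00221, 0.00849 and 0.00353 in that order). Without placebo ACLT pool A, Col14a1 no longer passed the test, at a log2 fold change of 2.37 and a limma adjusted p of 0.0792.

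Neither type I collagen gene passed the test. Col1a1 was at 17912 and 6874 CPM in the placebo ACLT pools, against 2138 and 7284 CPM in the placebo control pools. Col1a2 was at 14386 and 6004 CPM in the placebo ACLT pools, against 2176 and 5480 CPM in the placebo control pools. The 2 pools of a group thus differed by 2.40 to 3.41 times, the ACLT and control pools overlapped for Col1a1, and they were barely apart for Col1a2. The log2 fold change was 1.49 for Col1a1, with a 95% interval of -0.09 to 3.07 (limma adjusted p = 0.183), and 1.43 for Col1a2, with an interval of 0.03 to 2.82 (limma adjusted p = 0.151). These intervals include a change as large as that of Col5a1, so a rise of type I mRNA was not detectable with 2 pools rather than shown to be absent. The lowest library held an estimated 21396 reads of Col1a1 and 19907 of Col1a2. Col1a1 spans 94827050 to 94843868 of chromosome 11 and Col1a2 4504814 to 4541544 of chromosome 6, both on the plus strand.

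Skeletal muscle fiber markers moved opposite to the collagens in this comparison, at 0.0701% and 0.0391% of reads in the placebo ACLT pools and 3.38% and 7.85% in the placebo control pools. When the reads of muscle, erythroid and neutrophil markers were removed before scaling, 7 of the 9 genes again passed the test, with Col3a1 at a log2 fold change of 4.40. With the mean of the muscle markers as a covariate, which is nearly aligned with injury among placebo libraries, 0 of the 9 passed. Their log2 fold changes in that fit were 1.44 (Col16a1) to 3.44 (Col3a1) for the 7 genes, and 1 of the 17401 genes rose. Trimmed-mean scaling shifted the all-gene median to 0.01, in place of 0.17 as deposited, gave Col3a1 a log2 fold change of 4.33 and left 7 of the 9 genes past the threshold.

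The next question was how the same genes differed between injured and control limbs in mice given anti-GDF8. Of the 9 genes, 3, Col3a1, Col5a1 and Col5a3, rose in anti-GDF8 ACLT limbs against anti-GDF8 control limbs, by 19.2-fold, 3.04-fold and 4.00-fold, whereas 0.598% of all genes tested rose by the same rule. The other 6 had positive fold changes that did not pass. The median log2 fold change of the 9 was 1.63, against -0.04 for all genes tested. Both anti-GDF8 ACLT pools were above both anti-GDF8 control pools for 7 of the 9 genes, all except Col1a1 and Col1a2, which held for 20.2% of all genes tested.

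Col3a1 was at 2830 and 2298 CPM in the anti-GDF8 ACLT pools, against 96.8 and 183 CPM in the anti-GDF8 control pools. Col5a1 was at 284 and 204 CPM in the anti-GDF8 ACLT pools, against 62.8 and 99.4 CPM in the anti-GDF8 control pools. Col5a3 was at 113 and 106 CPM in the anti-GDF8 ACLT pools, against 25.1 and 30.0 CPM in the anti-GDF8 control pools. The lower injured pool was above the higher control pool by a wide margin in all 3. Their log2 fold changes were 4.26 ± 0.64 for Col3a1, 1.61 ± 0.26 for Col5a1 and 2.00 ± 0.21 for Col5a3 (SE, limma adjusted p = 0.0273, 0.0361 and 0.0146 in that order).

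Col5a2 was at 250 and 172 CPM in the anti-GDF8 ACLT pools, against 46.6 and 89.0 CPM in the anti-GDF8 control pools. Its log2 fold change of 1.69 ± 0.31 missed the threshold by little (limma adjusted p = 0.0607), and it passed after trimmed-mean scaling, after quantile normalization, without the filter on low values and after removal of the marker reads, at limma adjusted p of 0.046 to 0.049. Col12a1 was at 46.1 and 28.3 CPM in the anti-GDF8 ACLT pools, against 11.6 and 15.4 CPM in the anti-GDF8 control pools. Col14a1 was at 29.1 and 34.8 CPM in the anti-GDF8 ACLT pools, against 8.27 and 6.56 CPM in the anti-GDF8 control pools. Col16a1 was at 69.7 and 42.6 CPM in the anti-GDF8 ACLT pools, against 13.4 and 23.2 CPM in the anti-GDF8 control pools. All 4 genes were thus separated by injury in every pool. Their tests fell short, with log2 fold changes of 1.43 for Col12a1, 2.10 for Col14a1 and 1.63 for Col16a1 (limma adjusted p = 0.0684, 0.114 and 0.0835 in that order).

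Type I collagen overlapped between limbs here. Col1a1 was at 4119 and 2744 CPM in the anti-GDF8 ACLT pools, against 1301 and 3616 CPM in the anti-GDF8 control pools. Col1a2 was at 3490 and 2740 CPM in the anti-GDF8 ACLT pools, against 1211 and 3419 CPM in the anti-GDF8 control pools. Control pool A lay below both injured pools and control pool B between them, in both genes. The log2 fold change was 0.63 for Col1a1 (95% interval -0.95 to 2.22, limma adjusted p = 0.826) and 0.60 for Col1a2 (interval -0.79 to 2.00, limma adjusted p = 0.808).

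The number of genes past the threshold in anti-GDF8 mice rested on single libraries. It was 3 with all libraries, 1 without anti-GDF8 ACLT pool A, 6 without anti-GDF8 ACLT pool B and 0 without either anti-GDF8 control pool or either placebo ACLT pool. Placebo ACLT pools enter this comparison only through the shared estimate of spread, so in their absence the fold changes stayed the same while the calls were lost. Anti-GDF8 ACLT pool B, without which more genes passed, held 3.69% skeletal muscle fiber markers, against 0.247% in anti-GDF8 ACLT pool A. With the muscle markers as a covariate the count was 3, again Col3a1, Col5a1 and Col5a3, and with the marker reads removed it was 4, with Col5a2 added.

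**Figure D2:**
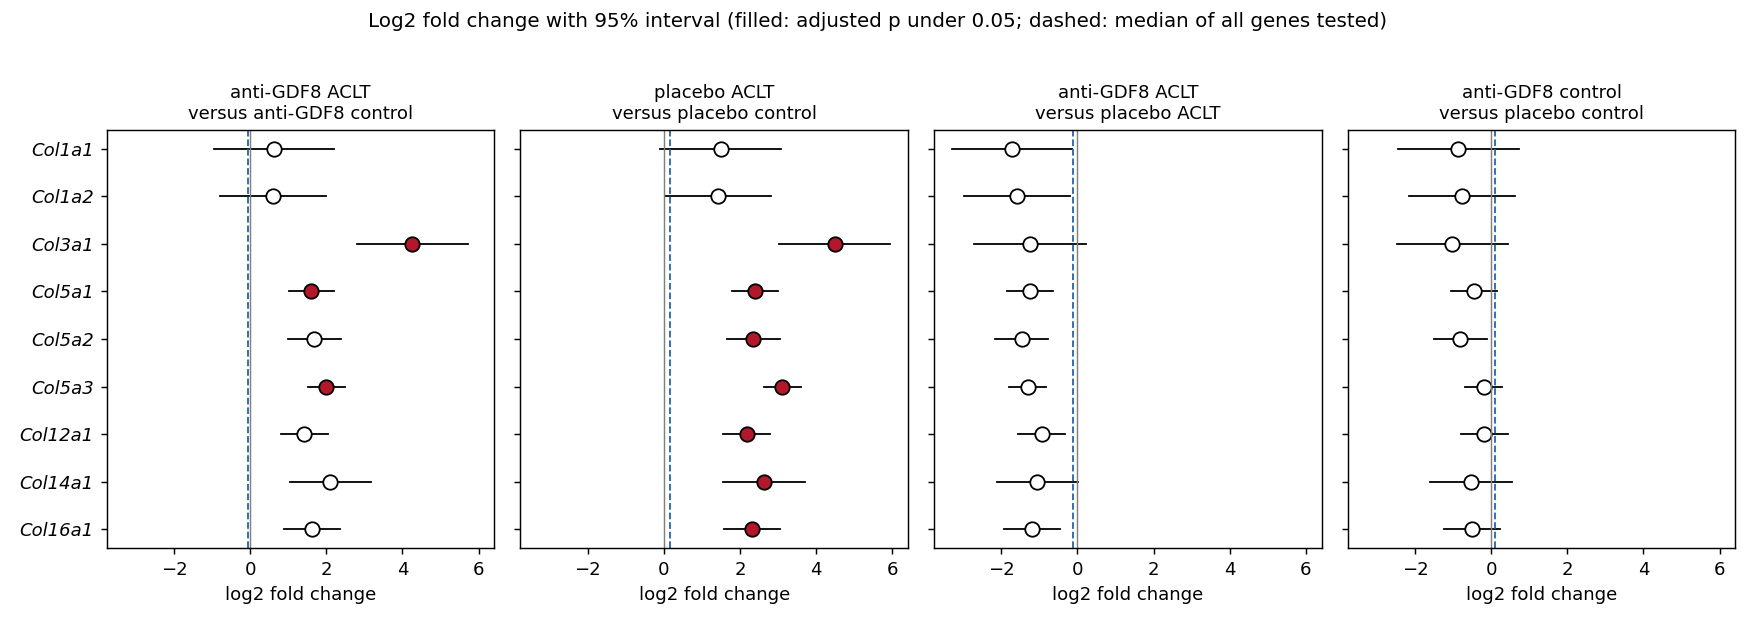
Log2 fold change of the 9 collagen genes (x axis) with its 95% interval in 4 comparisons. Filled points passed the limma test at an adjusted p under 0.05, and the dashed line is the median of all genes tested. The 2 injury comparisons on the left hold 3 and 7 filled points, and the 2 antibody comparisons on the right hold none, with every point left of 0.

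The comparison of the antibodies within injured limbs asks about the drug directly. All 9 genes were lower in both anti-GDF8 ACLT pools than in both placebo ACLT pools, which held for 35.6% of all genes tested, and 0 of the 9 passed the adjusted threshold. The log2 fold changes were -0.94 (Col12a1) to -1.72 (Col1a1), with a median of -1.25 against -0.11 for all genes tested. No gene of the 17401 passed with limma in this comparison (0%, smallest adjusted p = 0.120), nor with voom weights, and 3010 genes, including 7 of the 9, were at an unadjusted p under 0.05.

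The smallest p-values among the 9 belonged to type V collagen. Col5a3 was at 113 and 106 CPM in the anti-GDF8 ACLT pools, against 244 and 301 CPM in the placebo ACLT pools, a log2 fold change of -1.30 ± 0.21 (SE, limma adjusted p = 0.120). Col5a2, at 250 and 172 CPM in the anti-GDF8 ACLT pools and 670 and 491 CPM in the placebo ACLT pools, had a log2 fold change of -1.47 ± 0.31 (SE, limma adjusted p = 0.121). Col5a1, at 284 and 204 CPM in the anti-GDF8 ACLT pools and 648 and 501 CPM in the placebo ACLT pools, had -1.24 ± 0.26 on that scale (SE, limma adjusted p = 0.121). The pools of each antibody were close to each other in these 3 genes. For type I collagen the fold change depended on a single library. Col1a1 was at 4119 and 2744 CPM in the anti-GDF8 ACLT pools, against 17912 and 6874 CPM in the placebo ACLT pools, a log2 fold change of -1.72 with a 95% interval of -3.31 to -0.14 (limma adjusted p = 0.256). It was -1.03 without placebo ACLT pool A and -1.23 after quantile normalization, where Col5a2 had -1.53. Col3a1, at 2830 and 2298 CPM in the anti-GDF8 ACLT pools and 5932 and 6209 CPM in the placebo ACLT pools, had a log2 fold change of -1.25 with an interval of -2.71 to 0.21 (limma adjusted p = 0.356). Its pools were tight in injured limbs, and its wide interval followed from the shared spread, to which the control pools contributed.

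Without anti-GDF8 ACLT pool A, 4 of the 9 genes passed in this comparison, Col5a1, Col5a2, Col5a3 and Col12a1, at limma adjusted p of 0.0269 to 0.0444. In that setting the group was represented by pool B alone, the pool with 3.69% muscle markers, and the lone library was assumed to vary like the others. Removing muscle, erythroid and neutrophil marker reads with all libraries kept left 0 of 9 past the threshold, and the log2 fold changes were then -0.85 (Col12a1) to -1.63 (Col1a1).

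In control limbs, all 9 fold changes of anti-GDF8 against placebo were below 0, at -0.18 (Col12a1) to -1.02 (Col3a1), and 0 of the 9 passed (limma adjusted p = 0.891 to 0.914). The median over all genes tested was 0.09, with 63.1% of genes above 0. Of all 17401 genes, 0% passed with limma or with voom weights, and 791 were at an unadjusted p under 0.05. Only Col5a2 was lower in both anti-GDF8 control pools, at 46.6 and 89.0 CPM against 117 and 109 CPM in the placebo control pools, a pattern held by 11% of all genes tested. The other 8 genes overlapped between antibodies. The placebo control pools themselves differed by 5.41 times in Col3a1, 3.41 times in Col1a1 and 3.34 times in Col14a1, and the pool that was higher was A for Col3a1 and Col14a1 and B for Col1a1.

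Whether the injury difference itself changed with the antibody was tested by the interaction of drug and injury. All 9 interaction estimates were below 0, at -0.23 (Col3a1) to -1.11 (Col5a3) on the log2 scale, and 0 of the 9 passed (limma adjusted p = 0.449 to 0.937). The median over all genes tested was -0.21, with 32.5% of genes above 0, so Col3a1 lay at that median, and trimmed-mean scaling gave it -0.04. Only Col5a3 was at an unadjusted p under 0.05, with an estimate of -1.11 ± 0.30 (SE). Across all 17401 genes 0% passed, with limma as with voom weights, and 1799 were at an unadjusted p under 0.05. The 7 genes that passed with placebo and the 3 that passed with anti-GDF8 therefore do not show that the injury response differed between antibodies. For Col3a1 the log2 fold change of injury was 4.26 with anti-GDF8 and 4.49 with placebo, and the interval of the difference was -2.30 to 1.84.

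Read per length, the make-up of the collagen mRNA differed between limbs. Levels of different genes were compared as CPM per kilobase of the principal transcript in the mm10 annotation. In the placebo ACLT group the mean level was 2090 CPM per kilobase for Col1a1, 1906 for Col1a2 and 1091 for Col3a1, followed by 87.6 for Col5a2, 68.4 for Col5a1, 44.5 for Col5a3, 24.0 for Col16a1, 11.8 for Col14a1 and 6.02 for Col12a1. The pools of Col1a1 and Col1a2 overlapped on this scale, as did those of Col5a1 and Col5a2. Col3a1, at 1066 and 1116 CPM per kilobase, lay just below the lower Col1a2 pool of 1123, and each of the remaining genes was apart from its neighbors. In the placebo control group, Col3a1 averaged 66.9 CPM per kilobase, against 794 for Col1a1 and 716 for Col1a2.

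The ratio of Col3a1 to Col1a1 per transcript length was 0.732 and 0.893 in the anti-GDF8 ACLT pools and 0.353 and 0.963 in the placebo ACLT pools. In control limbs it was 0.0793 and 0.0538 with anti-GDF8 and 0.313 and 0.0170 with placebo. All 4 ACLT libraries were above all 4 control libraries, though placebo ACLT pool A and placebo control pool A were nearly level. Type III collagen made up 25.2% and 27.5% of the summed CPM of the 9 genes in the anti-GDF8 ACLT pools and 14.8% and 30.1% in the placebo ACLT pools, against 3.49% and 2.44% in the anti-GDF8 control pools and 11.9% and 0.881% in the placebo control pools. These shares were described and not tested.

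The chains of type I collagen kept a nearly fixed proportion. The helix holds the Col1a1 and Col1a2 products at 2 to 1, and the ratio of Col1a1 to Col1a2 mRNA per transcript length was 0.886 to 1.20 over the 8 libraries, while Col1a1 itself varied 13.8-fold. The ratio depends on the length used, and with all annotated exons merged, which lengthens Col1a2 to 12426 bases from the 5348 of its principal transcript, it was 1.86 to 2.52. Col5a2 to Col5a1 ranged from 0.942 to 1.55 per transcript length, Col5a3 to Col5a1 from 0.286 to 0.824 and Col12a1 to Col14a1 from 0.325 to 1.53. The type I pair had the narrowest range of these ratios.

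**Figure D3:**
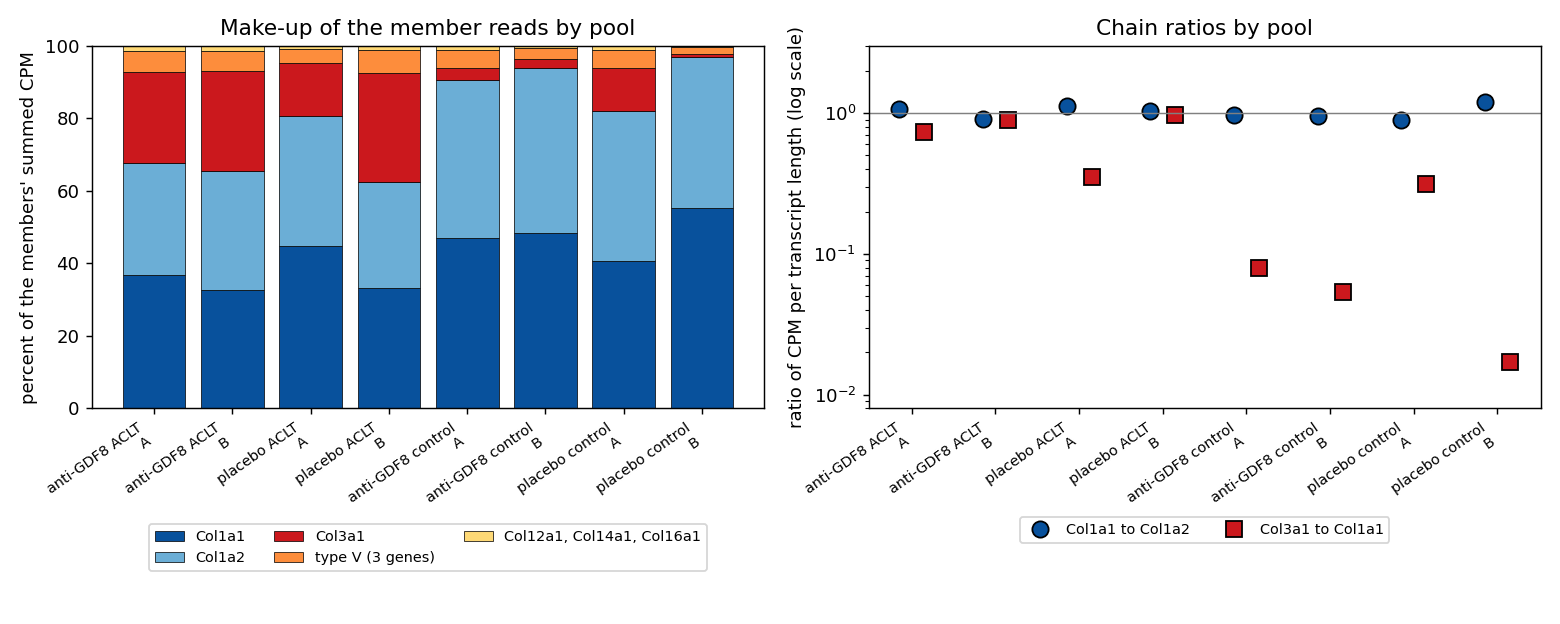
Left, percent of the summed CPM of the 9 genes (y axis) taken by each gene or group of genes in the 8 pools. Right, ratio of Col1a1 to Col1a2 (circles) and of Col3a1 to Col1a1 (squares) in CPM per transcript length (y axis, log scale). The circles stay between 0.886 and 1.20, and the squares range from 0.0170 in placebo control pool B to 0.963 in placebo ACLT pool B.

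Likeness of the 9 genes across the 8 libraries is given here as a description, since the libraries share groups and tissue make-up. Col1a1 and Col1a2 had a Pearson r of 0.995 with each other over 8 libraries, and the other 7 genes had r of 0.854 to 0.989 among themselves. Between those 7 and the type I genes, r was 0.492 to 0.805 for Col1a1 and 0.538 to 0.833 for Col1a2, highest with Col5a2 and Col5a1. Osteoblast markers, 9 genes led by Ibsp, took 0.166% and 0.107% of reads in the anti-GDF8 ACLT pools, 0.424% and 0.205% in the placebo ACLT pools, 0.0760% and 0.154% in the anti-GDF8 control pools and 0.122% and 0.135% in the placebo control pools. Their log2 sum had r of 0.92 with Col1a1 and 0.94 with Col1a2. Fibroblast markers, 11 genes led by Dcn, took 0.317% and 0.297% of reads in the anti-GDF8 ACLT pools, 0.642% and 0.589% in the placebo ACLT pools, 0.102% and 0.0969% in the anti-GDF8 control pools and 0.191% and 0.0870% in the placebo control pools. With these, r was 0.905 (Col12a1) to 0.991 (Col14a1) for the 7 genes and 0.549 and 0.590 for Col1a1 and Col1a2. This sum, led by the matrix genes Dcn and Lum, did not speak for each marker either. Pi16 was at 105 and 58.1 CPM in the placebo ACLT pools, against 79.0 and 72.8 CPM in the placebo controls. Dpp4 was at 21.9 and 20.0 CPM, against 26.3 and 17.5 CPM. Every other marker of the list was higher in both placebo ACLT pools than in both placebo controls. The lists were not exclusive. Activated fibroblast markers had r of 0.850 (Col14a1) to 0.962 (Col5a2) with the 7 genes, and 0.786 and 0.824 with Col1a1 and Col1a2. For tendon and ligament cell markers r was 0.856 (Col12a1) to 0.946 (Col5a2), and 0.677 and 0.715 for type I. Skeletal muscle fiber markers had r of -0.877 (Col12a1) to -0.795 (Col3a1) with the 7, and -0.569 and -0.582 for type I. Type I also had r of 0.810 and 0.823 with the chondrocyte markers. Col5a1, Col5a2 and Col12a1 had r of 0.955, 0.958 and 0.936 with the chondrocyte markers, above their r with the fibroblast markers. That sum was led by Prg4, at 6123 and 6881 CPM in the placebo ACLT pools, against 2231 and 1202 CPM in the placebo controls. Acan of the same list was at 70.5 and 70.0 CPM in those ACLT pools, against 84.3 and 88.0 CPM in those controls. The chondrocyte sum thus did not speak for each of its markers. Col5a1 and Col5a2 had r of 0.846 and 0.873 with the osteoblast markers. Type I collagen was highest in the library with the most osteoblast markers, placebo ACLT pool A. None of the fibroblast and osteoblast markers was at 0 in any library, and the part of cell make-up in the collagen differences was not tested.

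**Figure D4:**
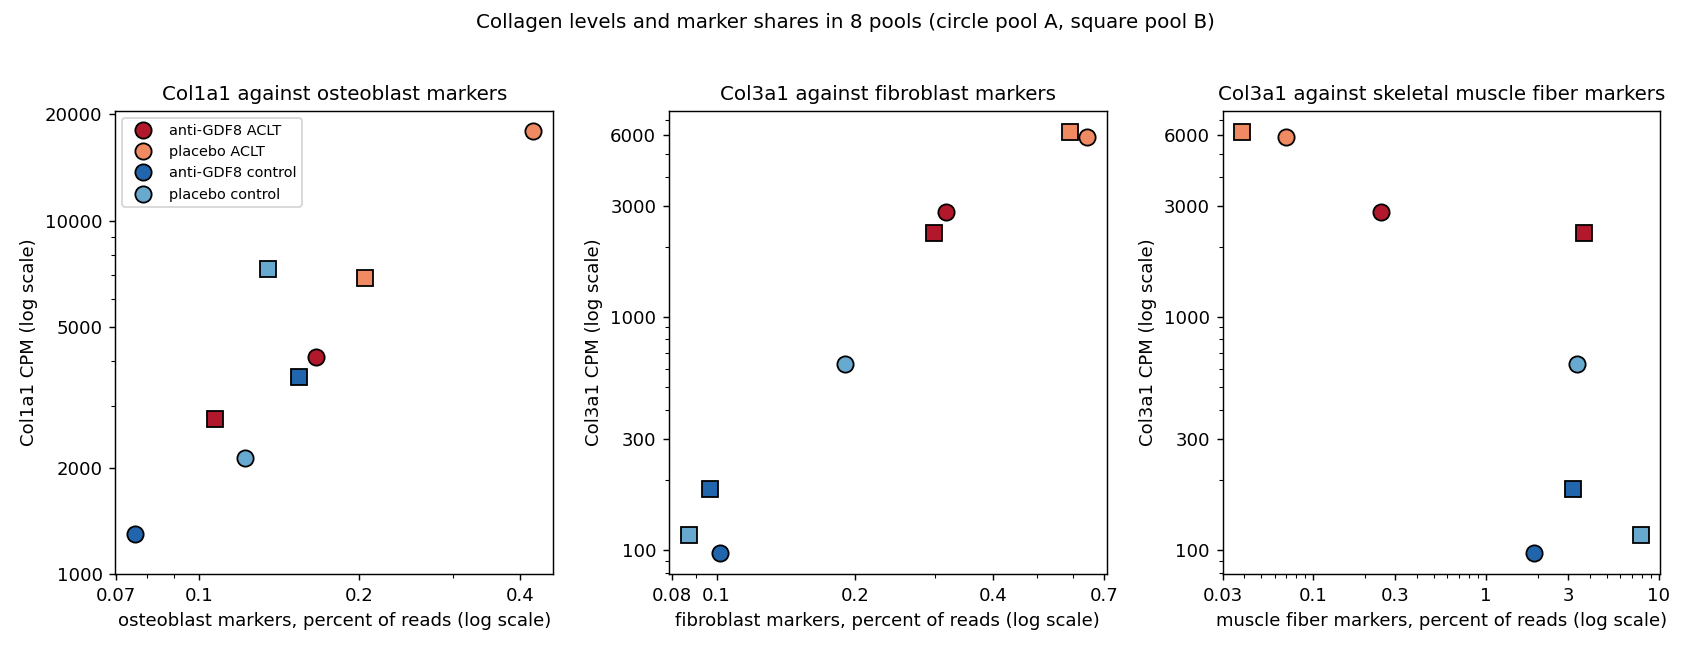
Left, Col1a1 CPM against the percent of reads from 9 osteoblast markers. Middle and right, Col3a1 CPM against the percent of reads from 11 fibroblast markers and from 20 skeletal muscle fiber markers. All axes are log scales and each point is a library, with a circle for pool A and a square for pool B. Col3a1 and the fibroblast markers are both higher in every ACLT pool than in every control pool, but within ACLT and within control pools their orders differ. Col3a1 has r of -0.795 with the muscle markers over the 8 libraries. Anti-GDF8 ACLT pool B, at 3.69% muscle markers, has the lowest Col3a1 of the ACLT pools (2298 CPM).

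Genes outside the 9 that followed their mean profile most closely over the 8 libraries, among 12053 genes of at least 5 CPM on average, were Pdgfa, Mmp2, Ppic, Bgn and P3h3, with r of 0.990 to 0.993. Pdgfa encodes a growth factor for mesenchymal cells, Mmp2 a gelatin-cleaving protease, Bgn the fibril-binding proteoglycan biglycan and P3h3 a collagen hydroxylase family member. Taken separately for the type I genes and the other 7, a choice made after their values were seen, the nearest genes to Col1a1 and Col1a2 were Pth1r, Col13a1, Cacnb3, Cpz and Sp7 (r of 0.965 to 0.974), of which Pth1r is the parathyroid hormone receptor and Sp7 the osteoblast transcription factor osterix. The nearest to the other 7 were Col6a2, Col6a1, Pcolce, Gpx8 and Itm2a (r of 0.993 to 1.00), of which Col6a1 and Col6a2 encode chains of the beaded filaments of type VI collagen.

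Among 11 other collagens of fibrils, 1 rose with injury in placebo mice, a share near the 11.6% of all genes tested. Of the 5 other fibril-forming collagens, which include the cartilage chains Col2a1, Col11a1 and Col11a2, 0 passed, with a median log2 fold change of 0.46, and their 3 smallest limma adjusted p were 0.0830 (Col27a1), 0.273 (Col2a1) and 0.445 (Col24a1). Col2a1, the fibril collagen of hyaline cartilage, was at 346 and 229 CPM in the placebo ACLT pools, against 283 and 1654 CPM in the placebo control pools, which overlapped. Of the 6 other fibril-associated collagens in the table, only Col22a1, a collagen of tissue junctions, rose, to 347 and 320 CPM in the placebo ACLT pools, against 100.3 and 83.5 CPM in the placebo control pools (log2 fold change 1.86, limma adjusted p = 0.00103). Col9a3, a chain of the cartilage fibril collagen type IX, had a log2 fold change of -1.50 (limma adjusted p = 0.274), and Col19a1, at a mean of 0.547 CPM, one of -1.06 (limma adjusted p = 0.539). With anti-GDF8, 0 of these 11 genes passed, where 0.598% of all genes tested rose.

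Genes that make, finish, bind and remove collagen were read against the 11.6% of all genes tested that rose with injury in placebo mice. Of 22 genes for hydroxylation, folding and secretion of procollagen, 16 rose and 0 fell, with a median log2 fold change of 1.19. P4ha3, a prolyl 4-hydroxylase subunit, was at 39.5 and 35.2 CPM in the placebo ACLT pools, against 3.78 and 1.25 CPM in the placebo control pools (log2 fold change 4.07, limma adjusted p = 0.00168). Fkbp14, a folding enzyme of the endoplasmic reticulum, and P3h4, part of a lysyl hydroxylation complex, rose by 1.96 and 1.50 on the log2 scale (limma adjusted p = 0.00120 and 0.00193). Of 12 genes for propeptide removal and cross-linking, 10 rose and 0 fell, with a median of 1.51. Pcolce, the enhancer of C-propeptide cleavage, was at 367 and 319 CPM in the placebo ACLT pools, against 75.1 and 58.7 CPM in the placebo control pools (log2 fold change 2.37, limma adjusted p = 9.4e-04), and the cross-linking oxidases Loxl1 and Loxl3 rose by 2.09 and 1.46 on the log2 scale (limma adjusted p = 9.5e-04 and 0.00166).

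Of 16 fibril-binding proteins, 14 rose and 0 fell, with a median log2 fold change of 2.03. Postn (periostin), which aids cross-linking, was at 368 and 396 CPM in the placebo ACLT pools, against 44.0 and 20.2 CPM in the placebo control pools (log2 fold change 3.67, limma adjusted p = 0.00120). Bgn and Thbs2, a matrix glycoprotein that affects fibril assembly, rose by 2.02 and 2.88 on the log2 scale (limma adjusted p = 0.00120 and 0.00279). Of 7 collagen-cleaving proteases in the table, 5 rose and 0 fell, among them the membrane collagenase Mmp14 (log2 fold change 2.35, limma adjusted p = 9.5e-04), Mmp2 (2.80, limma adjusted p = 0.00166) and the osteoclast protease Ctsk (1.84, limma adjusted p = 0.00365). Of 10 collagen receptors and uptake genes, 5 rose, including the uptake receptor Mrc2 (1.41), the tyrosine kinase receptor Ddr2 (1.90) and the integrin chain Itga11 (1.42, limma adjusted p of 0.00120 to 0.00208 for the 3). The only one to fall was Gp6, the collagen receptor of platelets, at a log2 fold change of -1.05 (limma adjusted p = 0.0496), where 4.03% of all genes tested fell. The fibroblast marker list shares Dcn, Lum and Fap with these lists, and the muscle marker difference given above ran through this comparison as well.

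In anti-GDF8 mice, 4 of these 67 making, binding and removing genes rose with injury, against the background of 0.598%. They were P4ha3 (log2 fold change 3.56), Pcolce (1.60), Lum (3.05), the proteoglycan lumican, which was named after its values were seen, and Mmp2 (2.20), at limma adjusted p of 0.0157 to 0.0268. Between antibodies in injured limbs, 0 of the 67 passed, and the log2 fold change was below 0 for all 22 folding genes (median -0.85), all 12 cross-linking genes (-1.04), all 16 fibril-binding genes (-0.97), 9 of 10 receptors (-0.41) and 5 of 7 proteases (-1.12), against a median of -0.11 for all genes tested. In that comparison 38.8% of all genes tested were above 0. The control-limb and interaction comparisons also had 0 past the threshold in every list.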

How the data were processed

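Knee cartilage RNA of 8 libraries was analysed, 2 pools in each of 4 groups taken from the sample labels. The authors deposited a single table of normalized expression with 20539 genes (15566 protein coding), in which each column sums to 1000000, so the deposited values were taken as CPM (counts per 1000000 reads). Per the submitters' processing notes, Partek, DESeq2 and STAR 2.7.3a were used along with builds mm39 and mm10, and the notes do not tie either build to the table. Gene starts matched the mm10 annotation (GENCODE M21) for 2.23% of 20494 shared IDs, so coordinates are given as in the table, whose build it does not state. Whether reads were counted by strand is not given in the sources used here. Col5a2 overlaps the unclassified transcript Gm38211, which averaged 7.92 CPM.

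Depth was estimated from the smallest CPM step of low genes as 16.4 to 28.1 M reads (median 20.1). Among values above 0 and under 200 estimated reads, 69.6% to 75.5% came out whole within 0.02 reads. Reads were therefore not recovered and the main test did not use counts. The voom weights named as an alternative were computed from CPM times the estimated depth of each library, which are estimates of reads. CPM were multiplied by the median depth, 1 read (0.0498 CPM) was added, and genes averaging 10 or more reads over the libraries were kept, which left 17401 genes and all 9 collagens. Fold changes on this log2 scale slightly understate those of low genes. limma 3.58.1 in R 4.3.3 fitted 4 group means with an intensity trend, with 4 residual and 4.74 prior degrees of freedom, and p-values were adjusted by Benjamini-Hochberg over all genes tested, with calls at 0.05. The procedure was run on simulated counts drawn with no differences in tissue make-up between pools, so that run does not cover such differences. Pools hold different limbs, labels do not tie limbs to mice, and p-values measure the spread between pools.

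The collagens and the gene lists were chosen with earlier results of these data known. From each list the text names the 3 genes with the smallest adjusted p in the placebo injury comparison and any gene called against its list, and outside the lists the 5 genes most correlated with the collagens' mean profile. Alternatives were another pseudocount, filter, scaling, variance model and block, a muscle covariate, removal of marker reads and leaving out each library. Figures were drawn with matplotlib 3.10.9.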

Additional observations from a re-analysis of the deposited data

How the results depend on the processing

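With placebo, the 7 collagens that rose with injury passed under every alternative run except the muscle covariate, where the count was 0, and the loss of placebo ACLT pool A, where it was 6, and leaving out each library gave 6 to 7. With anti-GDF8 the count of 3 became 0 without the intensity trend, 1 with voom weights and 5 with a replicate block by title number, and leaving out each library gave 0 to 6. Between antibodies in injured limbs the count was 0 throughout, apart from 4 without anti-GDF8 ACLT pool A, so leaving out each library gave 0 to 4. With a replicate block by pool letter, 7 collagens passed with placebo and 3 with anti-GDF8. Pool letters were not taken as pairs, because no source says that equal letters stand for the same mice. Deviations of same-lettered pools had correlations of 0.00324 to 0.296 between groups. Between ACLT and control limbs the correlation was 0.296 with anti-GDF8 and 0.0407 with placebo. These values cannot tell whether equal letters share mice, since pools of the same mice can also differ for other reasons.

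Some signs turned, each in a result that had not passed. In anti-GDF8 mice, the injury log2 fold change ranged from -0.11 to 1.37 for Col1a1 and from -0.14 to 1.35 for Col1a2 when libraries were left out in turn. Between antibodies in control limbs the same range was -1.75 to 0.021 for Col1a1, -2.24 to 0.20 for Col3a1, -0.49 to 0.11 for Col5a3, -0.43 to 0.063 for Col12a1 and -1.40 to 0.33 for Col14a1. For the interaction it was -1.74 to 0.025 for Col1a1, -1.45 to 0.99 for Col3a1 and -1.39 to 0.34 for Col14a1, and the muscle covariate gave 0.53 for Col3a1. The cause was not tested. The lowest library value of any of the 9 genes corresponded to about 130 reads, and each group had 2 pools.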
